A study of Mus musculus with 6 samples.

Results

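The genes described here cover the making, storage, breakdown and sensing of serotonin in mouse pancreatic islets. They are Tph1, Tph2, Ddc, Slc18a1, Slc18a2, Maoa, Maob, Htr2b, Htr1d and Htr3a, 10 of the 18193 genes named on the array. All 16 probe sets annotated to these symbols were kept apart, out of 45037 probe sets tested. The genes were chosen by their part in serotonin biology, and selected on the knockout and control values of these same arrays being known, in which Tph1 stood out. The differences between the groups are therefore given as descriptions, and no test is read from them.

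Islet RNA was measured on 1-colour arrays, 3 from mice labelled knockout and 3 from controls. The knockout mice were Pdx1Cre;PPARbetafl/fl, that is, they carried floxed alleles of Ppard (the gene of PPAR-beta, a nuclear receptor activated by fatty acids) together with a Cre transgene under Pdx1 control. The Pdx1 promoter is active throughout the developing pancreas and is not limited to beta cells. Controls were PPARbetafl/fl littermates without Cre. All were 8 weeks old and on a mixed SV 129/C57BL/6 background, and each array is a different animal per the design text. Both groups share the floxed alleles, and 0 arrays came from Cre-positive mice with intact Ppard, so effects of the deletion and of the Cre transgene cannot be told apart.

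Serotonin is made from the amino acid tryptophan. Tryptophan hydroxylase, encoded by Tph1 in most peripheral tissues and by Tph2 in neurons, carries out the rate-limiting hydroxylation, and the decarboxylase encoded by Ddc then removes the carboxyl group. The vesicular monoamine transporters encoded by Slc18a1 (VMAT1) and Slc18a2 (VMAT2) load serotonin into secretory granules, and the monoamine oxidases MAOA and MAOB degrade it. Beta cells hold serotonin in their insulin granules. In pregnant mice the islet expression of Tph1 and Tph2 is known to increase strongly, and serotonin acts back on beta cells through receptors that include HTR2B, HTR1D and the ion channel HTR3A.

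The values are log2 expression from RMA, so a difference of 1 is a doubling, and no detection call comes with them. The median per array lay between 5.39 and 5.49. Arrays correlated at r of 0.991 to 0.993 within the knockout group and 0.981 to 0.991 within controls. The labels name beta-cells, but by the protocol whole islets were isolated. The beta cell genes Ins2 (13.71 to 13.87 in knockout arrays, 13.83 to 13.87 in controls) and Iapp lay at the top of the range in all 6 arrays. Ppard itself, the targeted gene, was not lower: its brighter probe set read 8.01, 8.20 and 7.70 in knockout arrays against 7.75, 7.56 and 7.12 in controls (difference 0.49 ± 0.20, SE, limma adjusted p = 0.377). Its dimmer probe set (1439797_at) read 5.97, 5.84 and 5.73 in knockout arrays against 5.57, 5.47 and 5.47 in controls. These groups did not overlap (difference 0.35 ± 0.11, limma adjusted p = 0.255). The labels do not state the deleted exon, and a probe set outside it checks nothing, so the genotype rests on the labels. Acinar markers, from exocrine tissue carried along with islets, averaged 9.19, 6.05 and 6.14 over 15 genes in knockout arrays 1 to 3 and 7.28, 11.24 and 11.56 in control arrays 1 to 3. Controls 2 and 3 therefore stand apart, and the difference against control 1 alone is given below for each serotonin probe set on which it moved by more than the spread between arrays. Knockout 1 also lay above the other knockout arrays and above control 1, so the comparison with control 1 does not equalize acinar content. The Y-linked gene Eif2s3y read 9.72 to 9.85 in knockout arrays and 9.60 to 9.87 in controls, with Xist at 2.81 to 3.15 in knockout arrays and 2.90 to 3.46 in controls, and the groups overlapped on both.

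Upstream sequence is shown for the hydroxylase genes, whose probe sets differed most between the groups, and for Ddc, the next enzyme, whose probe sets did not. Each window holds the 250 bases before a RefSeq start (assembly GRCm38.p6), written 5′ to 3′ on the gene's own strand, here the minus strand in every case. Capitals mark matches on either strand to the CCAAT box, to the TATA box (spelled TATAAA) or to a nuclear receptor half-site (spelled AGGTCA).
Tph1, distal start, chr7:46672538-46672787: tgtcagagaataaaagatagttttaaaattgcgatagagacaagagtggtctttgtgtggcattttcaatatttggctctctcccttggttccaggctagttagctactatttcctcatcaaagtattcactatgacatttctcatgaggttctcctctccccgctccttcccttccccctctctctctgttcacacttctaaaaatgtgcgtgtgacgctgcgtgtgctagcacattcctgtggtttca
Tph1, proximal start, chr7:46667378-46667627: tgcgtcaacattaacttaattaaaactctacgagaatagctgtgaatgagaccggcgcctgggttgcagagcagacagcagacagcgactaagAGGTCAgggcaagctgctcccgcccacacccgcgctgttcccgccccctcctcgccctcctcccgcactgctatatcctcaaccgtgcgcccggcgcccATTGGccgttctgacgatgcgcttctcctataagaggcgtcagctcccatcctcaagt
Tph2, chr10:115185023-115185272: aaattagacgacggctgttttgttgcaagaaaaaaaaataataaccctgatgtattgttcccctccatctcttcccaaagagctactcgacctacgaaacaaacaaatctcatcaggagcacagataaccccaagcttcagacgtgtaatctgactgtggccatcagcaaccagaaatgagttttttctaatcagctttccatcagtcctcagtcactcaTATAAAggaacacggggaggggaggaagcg
Ddc, distal start, chr11:11898145-11898394: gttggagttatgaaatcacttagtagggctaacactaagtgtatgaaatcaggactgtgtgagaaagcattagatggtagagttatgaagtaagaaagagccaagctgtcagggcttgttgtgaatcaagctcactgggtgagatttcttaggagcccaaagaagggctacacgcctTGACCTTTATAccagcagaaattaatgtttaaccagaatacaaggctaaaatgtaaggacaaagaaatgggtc
Ddc, proximal start, chr11:11890409-11890658: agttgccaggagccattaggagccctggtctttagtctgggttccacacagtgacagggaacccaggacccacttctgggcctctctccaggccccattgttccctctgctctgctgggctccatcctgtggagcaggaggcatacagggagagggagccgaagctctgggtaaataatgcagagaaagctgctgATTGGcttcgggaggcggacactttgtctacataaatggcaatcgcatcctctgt

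RefSeq windows were matched for 7 of the 10 genes, 10 windows in all. CCAAT was present in 3 of these 10 windows, against 33.8% of all 32851 windows, and TATAAA in 2, against 12.4%. The proximal Tph1 window carries CCAAT in reverse between 58 and 54 bases before the start, and the proximal Ddc window carries it in reverse between 55 and 51 bases before the start. The Tph2 window carries TATAAA between 30 and 25 bases before the start. TTCNNNGAA, the palindrome to which STAT factors bind, was in 0 of the 10 windows and in 7.02% of all windows. TGACGTCA, the cyclic AMP response element, was in 0 of the 10 and 1.55% of all windows. AGGTCA, the half-site of nuclear receptors such as PPAR and RXR, was in 3 of the 10 and 14.0% of all windows. It lies between 157 and 152 bases before the proximal Tph1 start, and in reverse between 73 and 68 bases before the distal Ddc start, where it shares a base with a reversed TATAAA. The remaining match lies between 157 and 152 bases before the start of the receptor gene Htr2b. These matches describe letters in the windows and no site. Which Tph1 start was used in these islets was not analysed here.

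Tph1 showed by far the largest difference of the group. Its only probe set (1419524_at) read 8.87, 10.24 and 8.97 in knockout arrays 1 to 3 and 3.72, 3.81 and 4.04 in control arrays 1 to 3. Every knockout array lay far above every control array, with knockout 2 highest and the 3 controls close together. The means were 9.36 ± 0.76 in knockout arrays and 3.85 ± 0.17 in controls (SD, n = 3 each). Knockout arrays were 5.50 ± 0.36 (SE) higher, which is 45.4-fold. The knockout mean stood at percentile 88.9 of all probe sets and the control mean at percentile 28.9, which is dim, so the fold depends on the array background. In bulk islet RNA, the number of cells that express a gene and the RNA per cell cannot be told apart. The difference was 5.06 without knockout 2, 5.34 with the acinar marker level as a covariate and 5.64 against control 1 alone.

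Tph2, the neuronal counterpart, was higher as well, by less. Its probe set (1435314_at) read 7.76, 7.38 and 7.67 in knockout arrays against 6.34, 5.19 and 6.16 in controls. The groups did not overlap, and control 2 was about a log2 unit below the other controls. The means were 7.60 ± 0.20 in knockout arrays and 5.90 ± 0.62 in controls, a difference of 1.70 ± 0.30 (SE) or 3.26-fold. It was 1.35 without control 2 and 1.26 against control 1 alone. Knockout 2, the array with the most Tph1 signal, had the least Tph2 signal of its group.

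Ddc, which acts after the hydroxylases and also makes dopamine, was bright in both groups, which overlapped. Its brighter probe set (1426215_at) read 10.59, 10.39 and 10.52 in knockout arrays against 10.98, 10.33 and 10.50 in controls, a difference of -0.10 ± 0.18 (SE). The groups overlapped, with control 1 the highest array. The sign turned to 0.08 without control 1, and against control 1 alone the difference was -0.48. A second, dimmer Ddc probe set (1430591_at) read 4.20, 4.68 and 5.21 in knockout arrays against 5.82, 4.53 and 4.86 in controls, a difference of -0.37 ± 0.38. On this probe set the difference was -1.12 both with the acinar covariate and against control 1 alone, and 0.00037 without control 1, so it rests on that array.

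**Figure D1:**
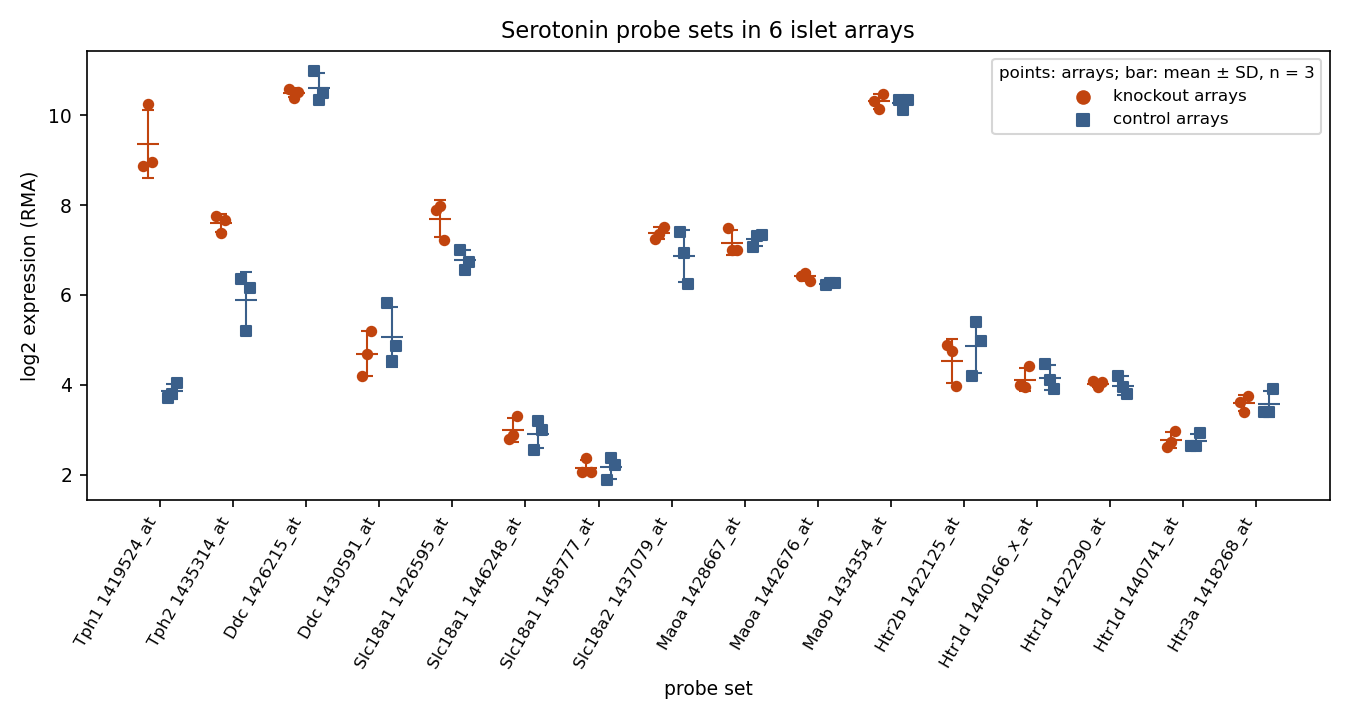
Log2 expression (y axis) of each of the 16 probe sets (x axis) in knockout arrays (circles, left of each pair) and control arrays (squares, right), with mean ± SD of 3 arrays per group. Tph1 stands at 8.87 to 10.24 in knockout arrays and 3.72 to 4.04 in controls, and most other probe sets overlap between the groups.

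Storage genes differed less, and not on all probe sets. The brightest Slc18a1 probe set (1426595_at) read 7.89, 7.97 and 7.23 in knockout arrays against 7.01, 6.56 and 6.74 in controls. The groups did not overlap, although knockout 3 lay only slightly above control 1. The difference was 0.93 ± 0.23 (SE) or 1.90-fold, with means of 7.70 ± 0.41 in knockout arrays and 6.77 ± 0.23 in controls. It ranged from 0.69 against control 1 alone to 1.17 without knockout 3. The other Slc18a1 probe sets were dim. 1446248_at read 2.79 to 3.30 in knockout arrays and 2.56 to 3.19 in controls, and 1458777_at read 2.06 to 2.36 in knockout arrays and 1.89 to 2.38 in controls, so both overlapped between the groups (differences 0.08 ± 0.21 and -0.0020 ± 0.16). Against control 1 alone these differences were 0.44 and 0.28, and without control 1 they were -0.09 and -0.14. Over all 6 arrays the groups were thus apart on 1 of the 3 Slc18a1 probe sets.

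Slc18a2 (1437079_at) read 7.25, 7.36 and 7.51 in knockout arrays against 7.41, 6.93 and 6.25 in controls. The knockout arrays were close together while the controls spread over more than a log2 unit, and control 1 lay above knockouts 1 and 2. The difference of 0.51 ± 0.28 (SE) was 0.06 with the acinar covariate and -0.04 against control 1 alone, the control array with the least acinar signal. It was 0.78 without control 1 and 0.20 without control 3, so its size depends on which controls are used.

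The monoamine oxidase genes were nearly level. Maob (1434354_at) read 10.32, 10.14 and 10.47 in knockout arrays and 10.33, 10.12 and 10.34 in controls, a difference of 0.05 ± 0.13 (SE). Its mean lay at percentile 94.2 in both groups, so this was a bright signal with little spread. The brighter Maoa probe set (1428667_at) read 7.48, 7.00 and 7.00 in knockout arrays and 7.06, 7.31 and 7.34 in controls, a difference of -0.08 ± 0.17 that became 0.21 with the acinar covariate. The second Maoa probe set (1442676_at) read 6.43, 6.50 and 6.31 in knockout arrays and 6.23, 6.26 and 6.27 in controls. These groups did not overlap, but the difference was only 0.16 ± 0.10 or 1.12-fold, and the brighter probe set had the opposite sign.

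The receptor genes were dim in both groups, and the groups overlapped on every receptor probe set. Htr2b (1422125_at), the receptor coupled to phospholipase C, read 4.88, 4.75 and 3.97 in knockout arrays and 4.21, 5.39 and 4.97 in controls, with the groups overlapping. Its difference was -0.32 ± 0.35 (SE), 0.28 with the acinar covariate and 0.33 against control 1 alone, so its sign is not settled. Htr1d, a receptor that inhibits adenylyl cyclase, overlapped on all 3 probe sets. 1440166_x_at spanned 3.95 to 4.41 in knockout arrays and 3.91 to 4.46 in controls, 1422290_at 3.95 to 4.09 in knockout arrays and 3.79 to 4.20 in controls, and 1440741_at 2.61 to 2.97 in knockout arrays and 2.64 to 2.94 in controls. Their differences lay between -0.04 and 0.05 over all 6 arrays. Against control 1 alone they were -0.34 for 1440166_x_at (-0.31 with the acinar covariate), -0.17 for 1422290_at and 0.13 for 1440741_at. Htr3a (1418268_at), a subunit of the serotonin-gated cation channel, read 3.61, 3.40 and 3.76 in knockout arrays and 3.40, 3.40 and 3.90 in controls, a difference of 0.02 ± 0.18. The control means of these 5 receptor probe sets lay at percentiles 12.9 to 42.4. Without detection calls, such levels cannot be told apart from background, and a change in them may be too small to see.

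**Figure D2:**
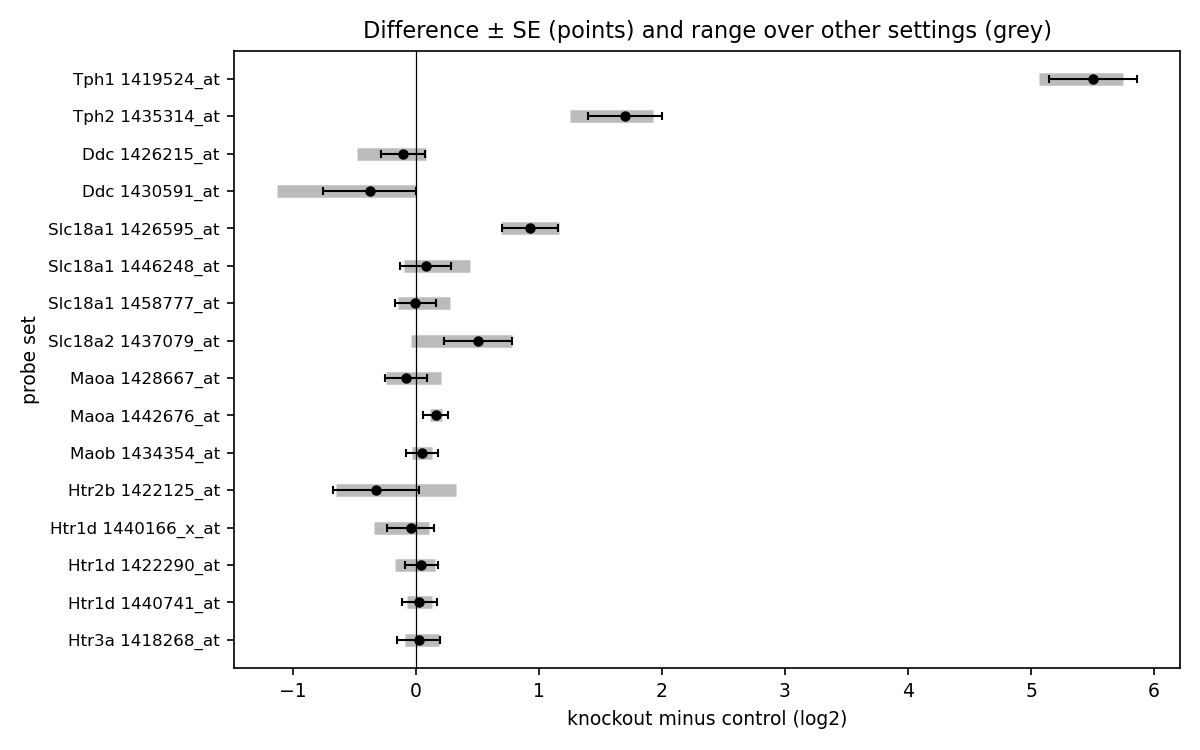
Difference of knockout minus control on the log2 scale (x axis) for each probe set (y axis), as points with SE from limma over 3 arrays per group. Grey bars span the values under all other settings, including each array left out. Tph1 spans 5.06 to 5.75 and Tph2 1.26 to 1.93, while the bars of the Ddc, Maob and receptor probe sets reach or cross 0.

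Across the whole table, limma called 0.897% of probe sets at an adjusted p under 0.05, 0.713% higher and 0.184% lower in knockout arrays. Of the 16 serotonin probe sets 1 was called, that of Tph1, and 15 were not. Groups did not overlap on 4 of the 16, all with the knockout arrays higher (Tph1, Tph2, 1 probe set each of Slc18a1 and Maoa), against 19.0% of all probe sets in either direction and 10.1% with knockout arrays higher. The median difference over the 16 was 0.04, against -0.02 over all probe sets, and 2 of them differed by at least 1, against 1.84% of all probe sets.

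By the shape of their values over the 6 arrays, 5 genes outside the group were most like Tph1. They were Oat (r = 0.998), which encodes ornithine aminotransferase, D830012I24Rik (0.995), Prr13 (0.994), Tnfrsf11b (0.994), which encodes the decoy receptor osteoprotegerin, and Cdk10 (0.994). Oat read 8.80, 9.28 and 8.78 in knockout arrays against 7.11, 7.14 and 7.07 in controls, with knockout 2 highest as for Tph1. Tnfrsf11b read 10.57, 10.80 and 10.20 in knockout arrays against 7.47, 7.60 and 7.78 in controls. In the other 3 the same shape came with a difference of at most 0.24. Pearson's r reached 0.99 in 13 of the 18183 genes compared, and it rests mainly on the gap between the groups. Within the group of 10, r with Tph1 was 0.88 for Tph2, 0.89 for the brightest Slc18a1 probe set, 0.89 for the dimmer Maoa probe set and 0.56 for Slc18a2. It was below 0 for Ddc, Htr2b, the brighter Maoa probe set and 1 Htr1d probe set.

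Other genes of serotonin biology were taken from 8 lists, of which 65 of 75 genes were measured. Tested with limma, with p adjusted over all 45037 probe sets, 1 gene had a probe set that rose, 0 had one that fell and 64 did not pass, against 1.4% of all genes with a called probe set and 1.1% with one that was higher. On the brightest probe sets 28 means were higher and 37 lower, with a median difference of -0.06, and at an unadjusted p under 0.05 there were 1 higher and 9 lower of 65, against 8.37% higher and 5.58% lower of all 18193 genes by the same measure. Against control 1 alone, some differences named below changed by more than 1.5 times. On brightest probe sets these were Kynu (-1.02), Slc22a2 (-0.09), Htr1a (-0.16), Htr7 (-0.10) and Tdo2 (0.46). Dimmer probe sets of Htr1a, Tgm2, Dbh and Gnao1 did so too, or changed sign. Among them were 1459848_x_at of Dbh (0.27), and 1421152_a_at (-0.26) and 1448031_at (-0.05) of Gnao1.

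The gene that rose was Tdo2, a tryptophan dioxygenase that sends tryptophan into the kynurenine pathway. It rose on a dimmer probe set (1419093_at), which read 5.41, 5.31 and 5.42 in knockout arrays against 4.06, 4.51 and 4.11 in controls, a difference of 1.16 ± 0.15 (SE, limma adjusted p = 0.0211). Its brightest probe set (1449337_at) overlapped between the groups and differed by 0.26 ± 0.18 (adjusted p = 0.611). A further, dim probe set (1455770_at) differed by 0.36 ± 0.15 without overlap (limma adjusted p = 0.395). The probe sets thus had the same sign but differed in size and in the call. The call of 1419093_at was lost with the replicate block and with the acinar covariate. It was also lost without control 3 (limma adjusted p = 0.104) and without any 1 of the knockout arrays (0.0883 to 0.106). Over all other settings its adjusted p lay between 0.0095 and 0.106. The other genes of competing tryptophan use did not pass, Kynu at -0.42 ± 0.25 and Ido1 at 0.29 ± 0.17, both dim.

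The tetrahydrobiopterin genes, which supply the cofactor of the hydroxylases, had 0 of 7 called, 5 with higher means and a median difference of 0.04. Gch1, the rate-limiting enzyme of that pathway, was bright and level at 12.15, 12.05 and 11.98 in knockout arrays and 12.03, 12.04 and 12.05 in controls (named after its values were seen, adjusted p = 0.961). Pcbd1, which regenerates the cofactor, differed by -0.37 ± 0.11 (adjusted p = 0.220) and Gchfr, a regulator of GCH1, by 0.36 ± 0.17 (adjusted p = 0.427). None of 7 transport genes was called (median -0.07). Slc29a4, a plasma membrane monoamine transporter, differed by -0.86 ± 0.25 (adjusted p = 0.224) without overlap between groups, and Slc22a2 by -0.37 ± 0.18. The serotonin reuptake transporter gene Slc6a4, also named after its values were seen, was dim at 2.58 to 2.95 in knockout arrays and 2.58 to 2.82 in controls.

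Genes acting downstream of MAO or on serotonin itself had 0 of 6 called (median -0.04). Aldh2, the mitochondrial dehydrogenase that clears the aldehyde made by MAO, read 8.48, 8.54 and 8.63 in knockout arrays against 9.48, 9.12 and 9.48 in controls, a difference of -0.81 ± 0.13 (adjusted p = 0.0550). All knockout arrays lay below all controls, and the adjusted p ranged from 0.0184 to 0.210 over the other settings. The methyltransferase gene Inmt differed by -0.15 ± 0.10. Of the catecholamine genes, which share DDC, the vesicular transporters and MAO, 0 of 11 were called (median -0.06). Th, tyrosine hydroxylase, the rate-limiting enzyme of dopamine synthesis, read 7.88, 7.50 and 7.42 in knockout arrays against 9.16, 8.50 and 9.04 in controls, without overlap. Its difference of -1.30 ± 0.21 did not pass (adjusted p = 0.0523, and 0.0195 to 0.254 over the other settings). Dbh, which makes noradrenaline, differed by -0.31 ± 0.18 on its brightest probe set, and by -0.0084 and 0.0095 on its others.

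The remaining receptors and partners gave no call either. Over the 10 other serotonin receptor genes, 17 probe sets spanned 1.87 to 5.56 in knockout arrays and 1.93 to 6.03 in controls, and 8 of 10 brightest probe sets had lower means (median -0.12). The smallest p were those of Htr1a (-0.30 ± 0.11, adjusted p = 0.336) and Htr7 (-0.19 ± 0.13, adjusted p = 0.604), both dim. The dimmer Htr1a probe set differed by 0.05. Among 6 transcription factors tied to serotonergic or endocrine identity (median -0.21), Lmx1b read 5.66, 5.28 and 5.46 in knockout arrays against 6.49, 5.99 and 6.58 in controls (-0.89 ± 0.19, adjusted p = 0.105). Insm1 differed by -0.44 ± 0.10 (adjusted p = 0.140). Among 11 genes of receptor coupling and serotonylation (median -0.01), Tgm2, the transglutaminase that couples serotonin to proteins, read 9.11, 9.20 and 9.43 in knockout arrays against 7.94, 8.35 and 8.62 in controls (0.94 ± 0.19, adjusted p = 0.0944). The other Tgm2 probe sets differed by 0.04 to 1.05. Gnao1 differed by -0.38 ± 0.16 on its brightest probe set (adjusted p = 0.376), and by -0.13 and 0.10 on its others.

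**Figure D3:**
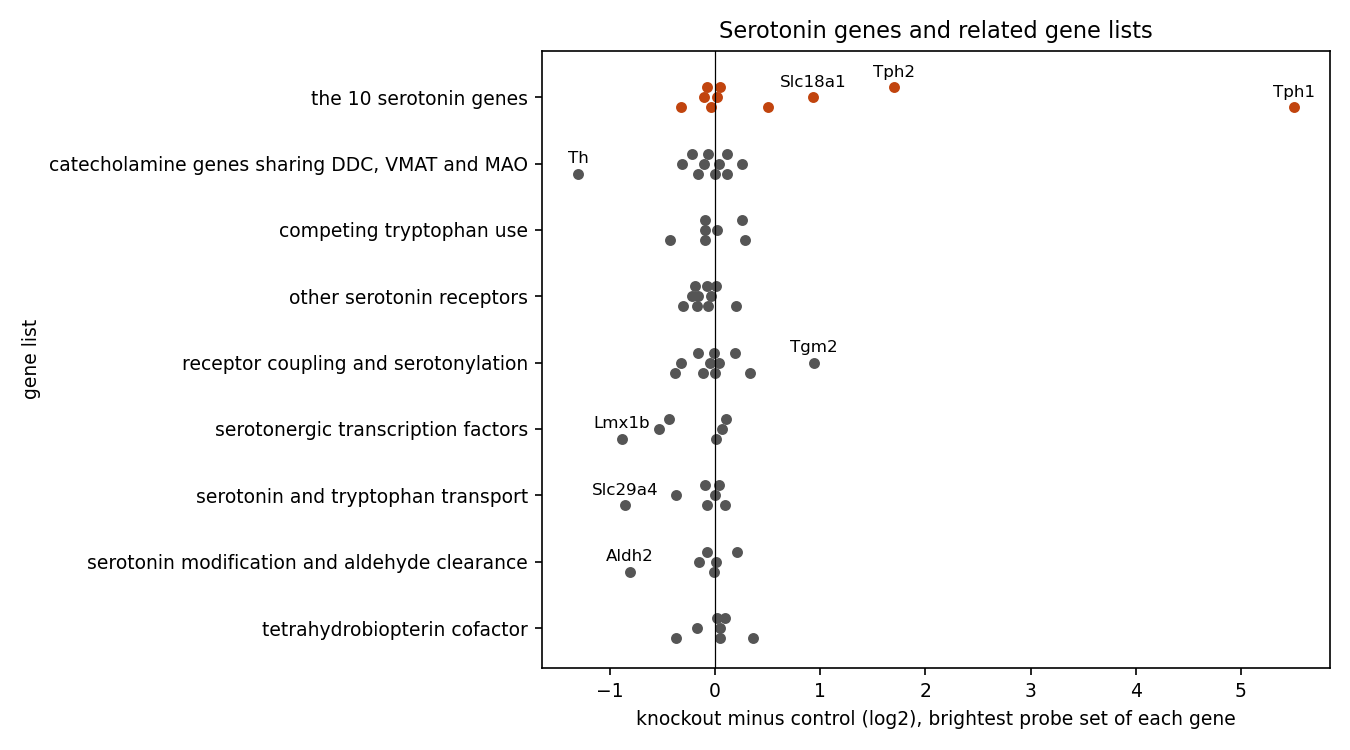
Difference of knockout minus control on the log2 scale (x axis) for the brightest probe set of each gene, by gene list (y axis), with the 10 serotonin genes on top and the vertical offset of points only for legibility. Genes that differ by more than 0.75 are named: Tph1 at 5.50 and Tph2 at 1.70 lie right of the 65 genes of the other lists, which span -1.30 to 0.94.

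Markers of other cells that make or carry serotonin were also measured. Of 10 mast cell markers (mast cells express Tph1 in mice), 0 were called by limma and 1 had a higher mean, and their mean level was 3.53 to 3.72 in knockout arrays and 3.63 to 3.85 in controls. The defining mast cell protease gene Cpa3 read 2.54 to 3.06 in knockout arrays and 2.80 to 3.04 in controls. Of 6 platelet and megakaryocyte markers 4 had higher means and 0 were called, with mean levels of 5.17 to 5.38 in knockout arrays and 4.96 to 5.26 in controls. The 8 markers of enterochromaffin and enteroendocrine cells, the main serotonin makers of the gut, averaged 4.14 to 4.51 in knockout arrays and 4.18 to 4.47 in controls. The 5 neuron and Schwann cell markers averaged 4.69 to 5.20 in knockout arrays and 4.75 to 5.01 in controls. The groups overlapped on the mean of each of these lists. The mast cell markers were dim, with a median percentile of 17.0 in knockout arrays and 19.0 in controls. Whether such cells had a part in the Tph1 difference was not tested.

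The means of the endocrine marker lists were lower in knockout arrays without overlap, by less. The mean of 8 beta cell markers differed by -0.33, that of 5 alpha cell markers by -0.41 and that of 5 delta and PP cell markers by -0.75 (exact permutation p = 0.1 each, two-sided, the smallest that 3 against 3 allows). The beta cell list was only just apart (at most 11.715 in knockout arrays, at least 11.721 in controls), and its median difference was -0.12 with 2 of 8 genes higher. Ins2, Iapp and G6pc2 differed by -0.05, 0.02 and 0.04. By limma 1 beta cell marker fell (the zinc transporter gene Slc30a8, -0.82, adjusted p = 0.0394) and 2 of the delta and PP cell markers (Ghsr, -1.17, adjusted p = 0.0097, and Rbp4, -0.73, adjusted p = 0.0265), while 0 alpha cell markers were called. Macrophage and leukocyte markers differed by 0.29 (exact permutation p = 0.1), endothelial markers by 0.29 and fibroblast and stellate cell markers by 0.14, duct markers by -0.58 and erythrocyte markers by -0.08 (exact permutation p = 0.2 to 0.8). Their part in the serotonin gene differences was not tested.

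**Figure D4:**
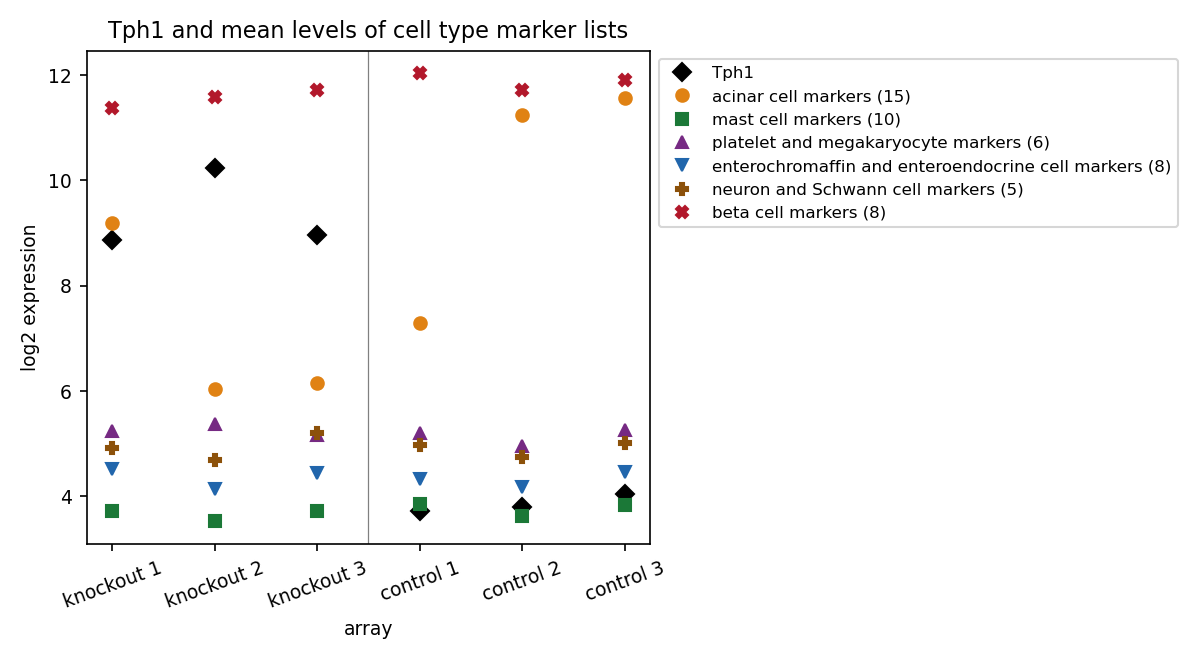
Log2 expression (y axis) of Tph1 (diamonds) and the mean over each of 6 marker lists, with the number of genes in brackets, in each array (x axis, knockout arrays left of the line, controls right). Tph1 stands at 8.87 to 10.24 in knockout arrays and 3.72 to 4.04 in controls, while mast cell markers stay between 3.53 and 3.85 in all 6 and acinar markers vary within both groups.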

How the data were processed

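The authors deposited log2 expression values per probe set from 1-colour Affymetrix mouse arrays. The submitters' processing notes name RMA (background correction, quantile normalization and probe summary), with no version. Scanner files were not used here. Of 45101 probe sets, 64 manufacturer controls were left out. Names came from the platform annotation (34945 of 45037 with a single symbol), updated by gene identifier through RefSeq's GRCm38.p6 table. The test was limma's (version 3.58.1, R 4.3.3, lmFit and eBayes, two-sided, a single group term, Benjamini-Hochberg over 45037 probe sets, calls at adjusted p under 0.05), tested on simulated data. Precision is limited by 3 arrays per group. Named genes were all probe sets of the 10 genes, and per list the called genes and the 2 of smallest p, plus the 5 most like Tph1. The members and lists were chosen with earlier results of these data known. Alternatives were other centring, normalization, filtering, variance models, array weights, a replicate block, an acinar covariate and left-out arrays. Deviations of same-numbered arrays correlated at r = -0.05, 0.14 and 0.0045, against -0.13 to 0.10 for arrays of different numbers. With 3 arrays per group this cannot exclude a pairing, and the main fit did not pair the arrays.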

Additional observations from a re-analysis of the deposited data

How the results depend on the processing

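At each other setting tried, Tph1 stayed higher in knockout arrays, by 5.06 to 5.75, as did Tph2 (1.26 to 1.93) and the brightest Slc18a1 probe set (0.69 to 1.17). The count of called probe sets over the whole table was 404 as reported (0.897%). It was 454 after quantile normalization again (1.01%), 595 of the 22518 probe sets that pass the filter on dim probe sets (2.64%), 887 with an intensity trend in the variance model (1.97%), 797 with array weights (1.77%), 246 with the replicate block (0.546%), 108 with the acinar covariate, 54 without both control arrays 2 and 3 (control 1 is then assumed to vary like the knockout arrays), and 152 (without control 3) to 783 (without control 1) with 1 array left out. Of the serotonin probe sets, 1 was called as reported and 2 (Tph1 and Tph2) under the filter on dim probe sets, the intensity trend, array weights and the replicate block. The count was 1 to 2 with 1 array left out, being 2 without control 1 or control 2, and 0 without both control arrays 2 and 3 (Tph1 adjusted p = 0.0690). Of the genes in the 8 other lists, 1 was called as reported, 3 after quantile normalization again, 2 under the filter, 5 with the intensity trend, 3 with array weights, and 0 with the replicate block, the acinar covariate, without both control arrays 2 and 3 or on brightest probe sets only. With 1 array left out the count was 0 to 3. The cause of these shifts was not tested. The counts for the 8 lists are of genes, while the percentages above are of probe sets, an unlike measure. The share of all genes with a called probe set was computed only for the fit as reported. The replicate numbers were not taken as pairs, so the block is given for completeness. Of the differences of single serotonin probe sets, 13 moved by more than the spread between arrays, all with the acinar covariate or without both control arrays 2 and 3. Dim probe sets have no value under the filter. Without detection calls, dim receptor signals limit what can be read from them.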
